A study of Mus musculus with 16 samples.

Results

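The 16 libraries described here came from E14.5 mouse fetal lung, taken whole, and were divided by a measured quantity, the ratio of embryonic to adult globin counts, into 8 with a higher and 8 with a lower ratio. The ratio of a library was log2 of the summed counts of Hbb-bh1, Hbb-y and Hba-x over the summed counts of Hba-a1, Hba-a2, Hbb-bs and Hbb-bt. In each of 4 groups of 4 libraries, the 2 with the highest ratio form the higher-ratio class and the other 2 the lower-ratio class, so that all 16 of the 16 libraries belong to 1 of the 2 classes. The groups were C57BL/6J (B6) and A/J fetuses, each from dams given BMS493, which drives every retinoic acid receptor below its basal activity, or corn oil as control. Dosing was oral, at 3.75 µg per g per day, from E9.5 to E14.5. The fetuses were described as male, and the labels give neither litters nor pooling, so p-values measure the spread between libraries only.

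Red cells of the first, yolk sac wave carry the embryonic globins, and the wave that matures in the fetal liver carries the adult ones. The share of embryonic globin in blood falls through this stage of gestation, which is why a high ratio can be read as an earlier fetus. In the lung, branching epithelium begins to express surfactant and airway secretory genes over the same days, the mesenchyme lays down elastic fibres and vessels, and RNA-binding proteins of the early embryo decline. The classes were selected on the globin counts, so the ratios below are a description, and the 7 globins were left out of every test. Whether the classes are lungs of different maturity is not given by any label.

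In B6 controls the log2 ratio was -2.24 in replicate 2 and -2.35 in replicate 4 (higher), against -2.41 in replicate 1 and -2.43 in replicate 3 (lower). In B6 with BMS493 it was -1.18 in replicate 1 and -2.01 in replicate 4, against -2.83 in replicate 3 and -3.20 in replicate 2. In A/J controls it was -1.10 in replicate 4 and -1.72 in replicate 2, against -1.75 in replicate 1 and -2.0003 in replicate 3. In A/J with BMS493 it was -1.13 in replicate 4 and -1.55 in replicate 3, against -2.04 in replicate 1 and -3.14 in replicate 2. The BMS493 groups thus hold most of the spread, and the 4 B6 controls have nearly the same ratio. The libraries just inside and just outside the boundary differed by 0.821 in the B6 and 0.489 in the A/J BMS493 group, but by 0.0666 in the B6 and 0.0296 in the A/J control group. The 95% counting interval of the A/J control gap, -0.00782 to 0.0671, includes 0, so which of these libraries belongs to which class is within counting error. Beta globins alone gave the same class for 16 of 16 libraries, and alpha globins alone for 14. Embryonic genes made up 9.79% to 31.8% of the globin counts of a library, from 4715 to 18441 embryonic and 22290 to 79790 adult counts.

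**Figure D1:**
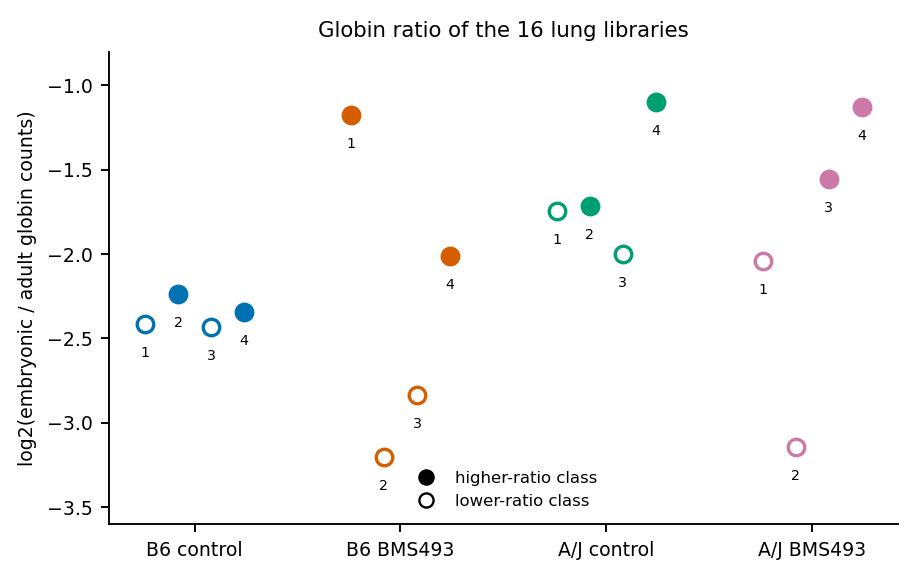
The log2 ratio of embryonic to adult globin counts (vertical axis) is plotted for each of the 16 libraries by group, with replicate numbers under the points. Filled points are the higher-ratio class and open points the lower-ratio class, and the classes lie 0.0666 and 0.0296 apart in the control groups against 0.821 and 0.489 in the BMS493 groups.

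Between 15207539 and 24146224 counts per library were assigned to genes. Of 5 library measures compared between the classes, the share of counts from mitochondrial genes differed, at 1.17% ± 0.170 (SD, n = 8) in the higher-ratio and 0.918% ± 0.271 (SD, n = 8) in the lower-ratio class (exact permutation within groups over 1296 arrangements, two-sided p = 0.00463, adjusted p = 0.0231). B6 BMS493 replicate 3 had the lowest such share, 0.339%, against at least 0.807% elsewhere, and lay farthest from its group in the within-group variation. Without it the lower-ratio class averaged 1.00%, and the difference still passed (exact p = 0.00772, adjusted p = 0.0386). Depth, the assigned and multimapping shares and the share of the 10 most abundant genes did not pass (exact permutation, adjusted p = 0.721 for each). All 4 libraries numbered replicate 4 fell into the higher-ratio class.

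The first comparison set the 8 higher-ratio against the 8 lower-ratio libraries with the group as a covariate. EdgeR's quasi-likelihood test called none at the 0.05 threshold on adjusted p (0 of 17269 genes, 0%), and 1308 had an unadjusted p under 0.05. The Wald test of DESeq2 called 14 genes, 2 of them higher and 12 lower in the higher-ratio class. The median log2 difference over all genes was -0.000090. The difference between classes depended on strain for 0 genes (0%) and on treatment for 0 genes (0%), with 719 and 1054 genes at an unadjusted p under 0.05, while DESeq2 called 2 and 3. Without B6 BMS493 replicate 2 these counts were 188 and 115, and without B6 BMS493 replicate 3 the count for treatment was 26.

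The genes of lowest p that moved the same way in all 4 groups are given here as not called. Lower in the higher-ratio class were Synm, which encodes the intermediate filament protein synemin, St3gal5, Pcdh1, Npr1, a natriuretic peptide receptor, and Lamb3, a laminin chain of epithelial basement membrane. Synm (ENSMUSG00000030554, chromosome 7) was at 18.1 to 24.8 CPM (counts scaled to a common library size) in the higher-ratio class with a median of 22.4, and at 22.6 to 45.9 with a median of 29.5 in the lower-ratio class. Within groups the classes did not overlap for Synm in 3 of 4, and its log2 difference was -0.50 (SE 0.09, edgeR adjusted p = 0.274). The other 4 ran from -0.23 (Pcdh1) to -0.31 (Lamb3), each with an edgeR adjusted p of 0.464. Higher in that class were AW551984 at 0.27, Crabp2, a carrier of retinoic acid, at 0.54, mt-Nd6 at 0.40, Thyn1 at 0.18 and Lmo3 at 0.41 (edgeR adjusted p of 0.464 to 0.519). Mt-Nd6 overlaps mt-Nd5 on the opposite strand, and the counting did not use strand.

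A stricter description asks for both higher-ratio libraries to lie on the same side of both lower-ratio libraries in 4 of 4 groups. It held for 21 genes that were lower (0.122% of 17269) and 14 that were higher (0.0811%) in the higher-ratio class. An unrelated gene can also pass by chance, since the classes have 1296 arrangements within groups and 17269 genes were examined. The number that chance would give was not set against these counts, so the members below are a description only. Postn, which encodes the matrix protein periostin, was one of the 21. It was at 71.5 and 75.5 against 75.7 and 78.1 CPM in B6 controls and at 58.5 and 65.0 against 77.4 and 109 CPM in B6 with BMS493. In A/J it was at 36.5 and 47.8 against 49.9 and 54.2 CPM in controls and at 41.8 and 46.2 against 46.9 and 62.9 CPM with BMS493. The lower-ratio libraries were the higher ones each time, by a small margin in 3 groups and by a wider one in B6 with BMS493. The rest of the 21 included the heart muscle gene Mybpc3, the proteasome gene Psmb8, the aldehyde dehydrogenase genes Aldh1a7 and Aldh3a2, the ganglioside synthase gene St3gal5 and Alas2, the heme synthesis enzyme of red cells. Among the 14 were mt-Nd6, the DNA polymerase subunit gene Pola2 and Ssb, which encodes the La RNA-binding protein. Of these genes, all but Postn, Alas2, St3gal5 and mt-Nd6 were chosen for mention after their values were seen.

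Classes discard how far apart the libraries are, so the same model was fitted with the log2 ratio as a number. Its slope is the log2 change in a gene's level per doubling of the globin ratio, within groups. It called 63 rising genes (0.365% of 17269) and 309 falling genes (1.79%), where falling means higher in libraries with less embryonic globin. EdgeR's class test with group as covariate called none of these 372, but all 372 had the same sign there and 285 an unadjusted p under 0.05, from the same libraries. The slope differed by strain for 0 genes and by treatment for 0 genes, with 591 and 572 at an unadjusted p under 0.05. This test gives the slope of each group equal weight, and the 4 B6 controls had nearly the same ratio. Their slopes were thus poorly determined, and the test could hardly call a gene. For Sftpc the tested strain difference was 0.055, against slopes of -1.12 in B6 alone and -0.39 in A/J alone. Whether slopes are shared cannot be read from this test. The 8 control libraries alone called 675 genes, 310 rising and 365 falling, and the 8 BMS493 libraries alone 34, 1 rising and 33 falling. Of the genes called in all libraries, 365 were tested in the controls alone, where 338 kept their sign and 55 were called, and 365 in the BMS493 libraries alone, where all 365 kept their sign and 34 were called. Without B6 BMS493 replicate 1, 90 genes were called, and without B6 BMS493 replicate 2, 110. Leaving out B6 BMS493 replicate 3 gave 720. Across the 16 fits that each left out 1 library, 62 genes were called every time, 58 falling and 4 rising.

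The strains consist of different libraries, so each shows whether the other's calls recur. In the 8 B6 libraries alone 290 genes were called (1.8% of 16155), 60 rising and 230 falling. Of these, 281 were tested in A/J alone, where 246 (87.5%) had the same sign, 106 of them at an unadjusted p under 0.05. Over all 15700 genes tested in both strains 56.3% had the same sign. The 27 genes called in the 8 A/J libraries alone (0.165% of 16409) had the same sign in B6 in 23 of 27, with 19 of them at an unadjusted p under 0.05. The B6 calls had a median slope of 0.45 in size in B6 and 0.15 in A/J, and the A/J calls one of 0.409 in A/J and 0.414 in B6. Both strains called 9 genes.

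**Figure D2:**
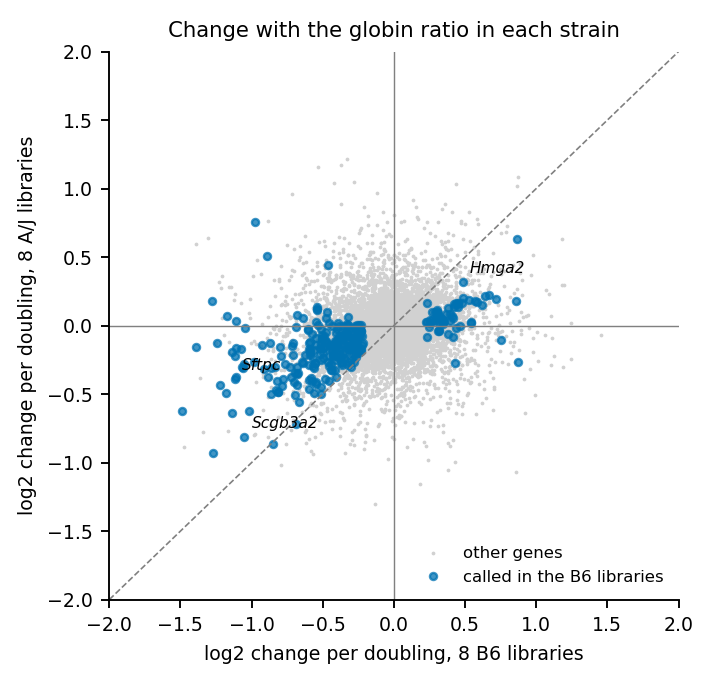
Each point is 1 gene, with its log2 change per doubling of the globin ratio in the 8 B6 libraries (horizontal axis) and in the 8 A/J libraries (vertical axis). Blue genes were called in B6 alone, most of them lie in the lower left corner, and 1 grey gene lies outside the axes.

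Of 28 tested genes of surfactant and of the alveolar epithelium 13 fell with the ratio, so that they were higher where embryonic globin was lower, and 0 rose, with a list median of -0.35 against 0.00059 over all genes. Sftpc encodes surfactant protein C, a product of distal lung epithelium. Sftpc (ENSMUSG00000022097, chromosome 14), from the highest to the lowest ratio, was at 179, 288, 590 and 867 CPM in B6 with BMS493 and at 75.05, 76.0, 86.9 and 109 CPM in A/J with BMS493. In A/J controls it was at 53.5, 77.8, 92.4 and 100.7 CPM, and in B6 controls, where the ratio hardly varied, at 248, 341, 286 and 248.8 CPM. Its level thus followed the reverse order of the ratio in 3 of 4 groups, and the classes overlapped in B6 controls. The slope was -0.77 (SE 0.14, edgeR adjusted p = 0.0158), and without B6 BMS493 replicate 1 it was not called (edgeR adjusted p = 0.188).

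Other members with roles in surfactant fell as well. Sftpb, the gene of surfactant protein B, had a slope of -0.67 (SE 0.15, edgeR adjusted p = 0.0466) and was highest in B6 BMS493 replicate 2, at 87.3 CPM against at most 44.3 elsewhere. Sftpa1 fell by 0.60 and Abca3, the lipid transporter of lamellar bodies, by 0.33. Napsa and Ctsh, proteases that process surfactant proteins, fell by 0.99 and 0.66. Slc34a2, a phosphate transporter of alveolar type II cells, fell by 1.72 but was low, at 0 to 7.31 CPM, and was not called without B6 BMS493 replicate 2 (edgeR adjusted p = 0.371). Of genes of the flat type I cells, Ager fell by 0.53, Clic5 by 0.73 and Cav1 by 0.22. Hopx, at -0.37, was not called (edgeR adjusted p = 0.0771). EdgeR's adjusted p of these called members was at most 0.0466, that of Sftpb.

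Without B6 BMS493 replicate 1, 2 of these 13 and 82 of all 372 genes were still called, and without B6 BMS493 replicate 2, 5 of the 13 and 101 of the 372. Sftpb and Clic5 were each called in 4 of the 16 fits that left out 1 library. Ctsh and Lmo7 were called in all 16. Within B6 8 of the 13 were called, and within A/J 2. With the replicate number as a further factor, 0 of the 13 and 57 of all 372 genes were called, while all 372 kept their sign. Sftpd was not tested, its highest count being 2.

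The promoter of Sftpb is shown because Sftpb is among the 13 that fell. The core CTCAAG is bound by NKX2-1, a transcription factor that marks lung epithelium. The 250 bases upstream of the start site (RefSeq, GRCm38.p6, chr6:72304360-72304609, plus strand) hold it 2 times, starting 100 and 15 bases before the start, in capitals.

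Sftpb: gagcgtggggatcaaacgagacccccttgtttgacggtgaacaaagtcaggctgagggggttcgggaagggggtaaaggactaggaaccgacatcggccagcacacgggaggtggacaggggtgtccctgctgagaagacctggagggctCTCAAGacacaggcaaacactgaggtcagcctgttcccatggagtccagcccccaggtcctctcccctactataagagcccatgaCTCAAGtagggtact

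On either strand these letters occurred in the same window in 2 of the 10 called alveolar genes with a promoter in the table. They occurred in 13.3% of 226 falling and 16.3% of 43 rising genes, against 14.46% of 11649 tested genes and 13.3% of all 32851 promoters. The shares of falling and of all tested genes lay close together.

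Of 17 tested genes of the proximal airway 5 fell and 0 rose, with a median of -0.23. Scgb3a2 was the 1 of the 5 still called without B6 BMS493 replicate 1, or without B6 BMS493 replicate 2. Scgb3a2, a secretoglobin of developing club cells, fell by 0.97 (SE 0.12, edgeR adjusted p = 6.97e-05). Scgb3a2 was at 6.97, 12.2, 27.8 and 27.2 CPM in B6 with BMS493 and at 1.81, 1.16, 1.81 and 3.78 CPM in A/J with BMS493, from the highest to the lowest ratio. It was at 1.02, 1.52, 1.59 and 3.32 CPM in A/J controls and at 13.4, 15.2, 16.8 and 12.9 CPM in B6 controls. The lowest-ratio library was the highest of its group in both A/J groups, and the 2 lower-ratio libraries were both above the others in B6 with BMS493. The call of Scgb3a2 held in all 16 fits that left out 1 library, and its adjusted p in A/J alone was 0.257 (edgeR) at a slope of -0.81.

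Foxj1, the master regulator of motile cilia, fell by 0.94 (SE 0.19, edgeR adjusted p = 0.00797). It reached 15.9 CPM in B6 BMS493 replicate 2 and 0.302 to 6.54 CPM elsewhere, and without that library it was not called (edgeR adjusted p = 0.265). Of 21 tested ciliated cell genes Foxj1 and Deup1 fell, and neither was called without that library or without B6 BMS493 replicate 1. Of 24 genes of the distal tip, where branching occurs, 2 fell, Clu and Cdh1, the latter not called without B6 BMS493 replicate 1 (edgeR adjusted p = 0.0792). Clu (ENSMUSG00000022037, chromosome 14), which encodes clusterin, was at 162, 167, 174 and 166 CPM in B6 controls and 130, 139, 225 and 270 CPM in B6 with BMS493, from the highest to the lowest ratio. In A/J it was at 64.9, 78.3, 87.8 and 85.8 CPM in controls and 51.1, 47.2, 67.3 and 83.5 CPM with BMS493. The lower-ratio libraries exceeded the higher-ratio ones in 3 of 4 groups, and in B6 controls they overlapped. Clu had a slope of -0.48 (SE 0.05) and was called in B6 alone (edgeR adjusted p = 0.0011) and in A/J alone (edgeR adjusted p = 0.00746). Sox9 at -0.08 and Etv5 at 0.00, regulators of the tip progenitors, were not called, nor was Sox2 of the proximal airway at 0.07 (edgeR adjusted p of 0.718, 0.987 and 0.731).

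**Figure D3:**
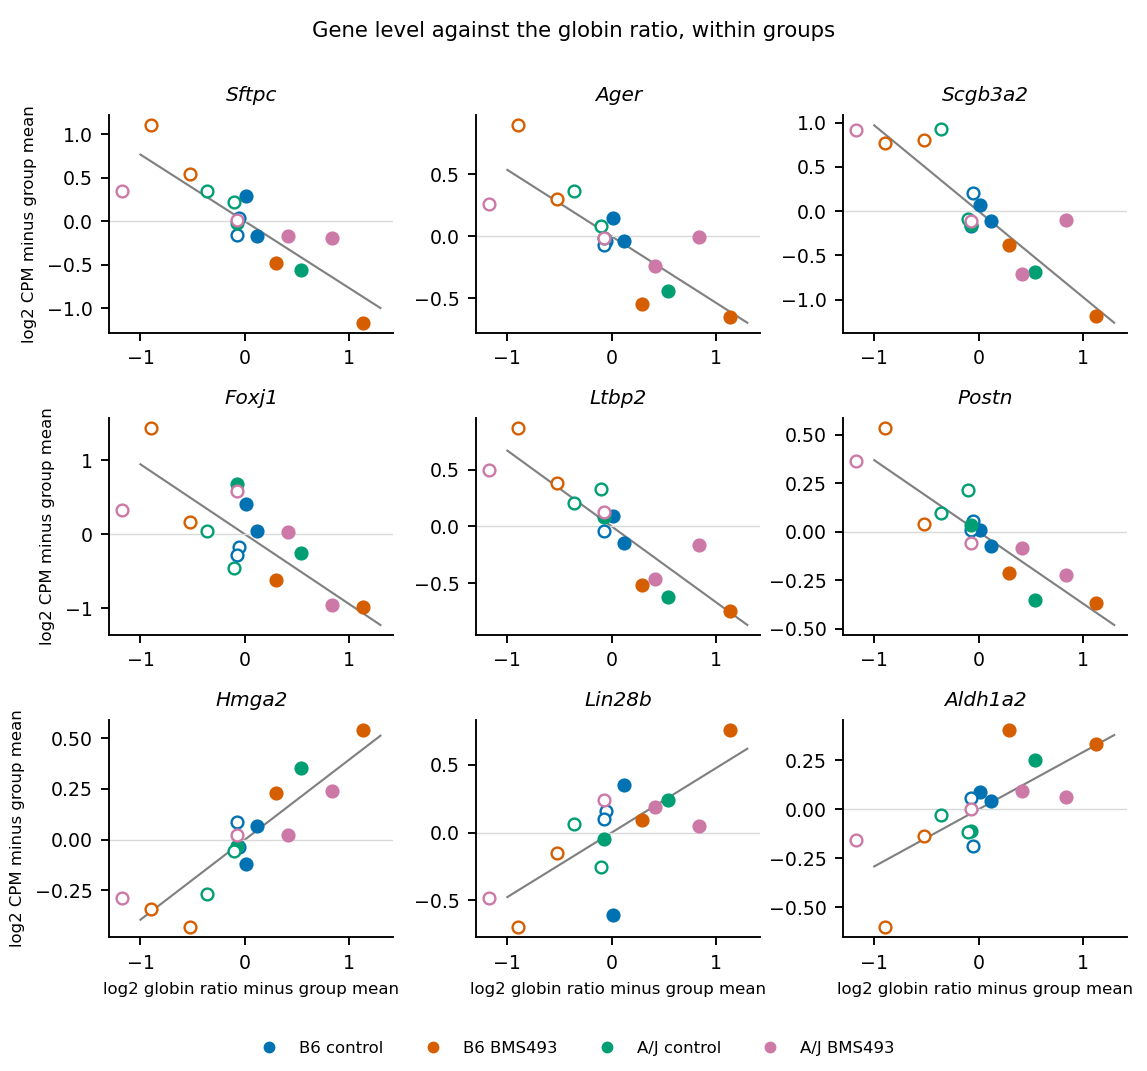
For 9 genes, log2 CPM minus its group mean (vertical axes) is plotted against the log2 globin ratio minus its group mean (horizontal axes), 1 point per library, filled for the higher-ratio class, with the fitted slope as a line. Sftpc, Ager, Scgb3a2, Foxj1, Ltbp2 and Postn slope down and Hmga2, Lin28b and Aldh1a2 slope up, and the points farthest out are BMS493 libraries.

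Of 36 tested genes of elastic fibres and collagens 12 fell and 0 rose, with a median of -0.17 and 32 of 36 below 0. Ltbp2, a latent TGF-beta binding protein of elastic fibres, fell most, by 0.67 (SE 0.08, edgeR adjusted p = 0.000137). It was at 31.8, 37.3, 69.6 and 97.5 CPM in B6 with BMS493 and at 12.7, 10.3, 15.6 and 20.2 CPM in A/J with BMS493, from the highest to the lowest ratio. Its controls were at 32.0, 37.8, 37.9 and 34.5 CPM in B6 and at 7.94, 12.99, 15.4 and 14.2 CPM in A/J. Only in B6 controls did the classes of Ltbp2 overlap within the group. Fbln5, an elastic fibre assembly protein, fell by 0.34, Postn by 0.37, Tnc by 0.36, Col6a3 by 0.32 and Sparc by 0.18. Eln, the gene of elastin, had a slope of -0.51 (SE 0.13) and was not called (edgeR adjusted p = 0.0841), though it was in B6 alone (-0.73, edgeR adjusted p = 0.0122). Fbln5, Ltbp2 and Postn were called in all 16 fits that left out 1 library. Without B6 BMS493 replicate 1, 3 of the 12 were called, and without B6 BMS493 replicate 2, 5. With the mitochondrial share as a covariate, 8 of the 12 were called, and with the replicate number as a factor, 3.

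Of 33 tested endothelial genes 8 fell and 0 rose, and 31 of 33 were below 0 with a median of -0.15. Pecam1, an adhesion molecule of all endothelium, was at 214, 216, 230 and 278 CPM in B6 with BMS493 and at 158, 160, 169 and 193 CPM in A/J with BMS493, from the highest to the lowest ratio. Its slope was -0.16 (SE 0.03, edgeR adjusted p = 0.00976), and it was not called without B6 BMS493 replicate 2 (edgeR adjusted p = 0.107). Sox17, an arterial transcription factor, fell by 0.39, Kit, which marks a set of lung capillary and mast cells, by 0.25, and the receptor genes Tie1 and Tek by 0.19 and 0.18. Tie1, Sox17 and Kit were called in all 16 fits that left out 1 library. Without B6 BMS493 replicate 1, 5 of the 8 were called, and without B6 BMS493 replicate 2, 3. With the replicate number as a factor, 1 of the 8 was called. In bulk lung, fewer cells of a type and less RNA per cell cannot be told apart, here and in every list. Car4, a gene of the alveolar capillary, reached 8 counts at most and did not enter the tests.

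Of 22 smooth muscle genes Acta2 fell by 0.14 (SE 0.03, edgeR adjusted p = 0.0225) and Synm by 0.48 (SE 0.06, edgeR adjusted p = 7.62e-05), and the median was -0.06. Synm was called in all 16 fits that left out 1 library and in each strain alone. The call of Acta2 was lost without B6 BMS493 replicate 1 (edgeR adjusted p = 0.171) and without B6 BMS493 replicate 2. Of 28 mesenchyme genes Wnt2 rose by 0.18, while Fgf7, at -0.46, and Limch1, at -0.22, fell. None of the 3 was called without B6 BMS493 replicate 1 or without B6 BMS493 replicate 2, and Fgf7 was called in 4 of the 16 fits that left out 1 library. Pdgfra at 0.00 and Fgf10 at -0.05, the growth factor that drives branching, were not called.

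**Figure D4:**
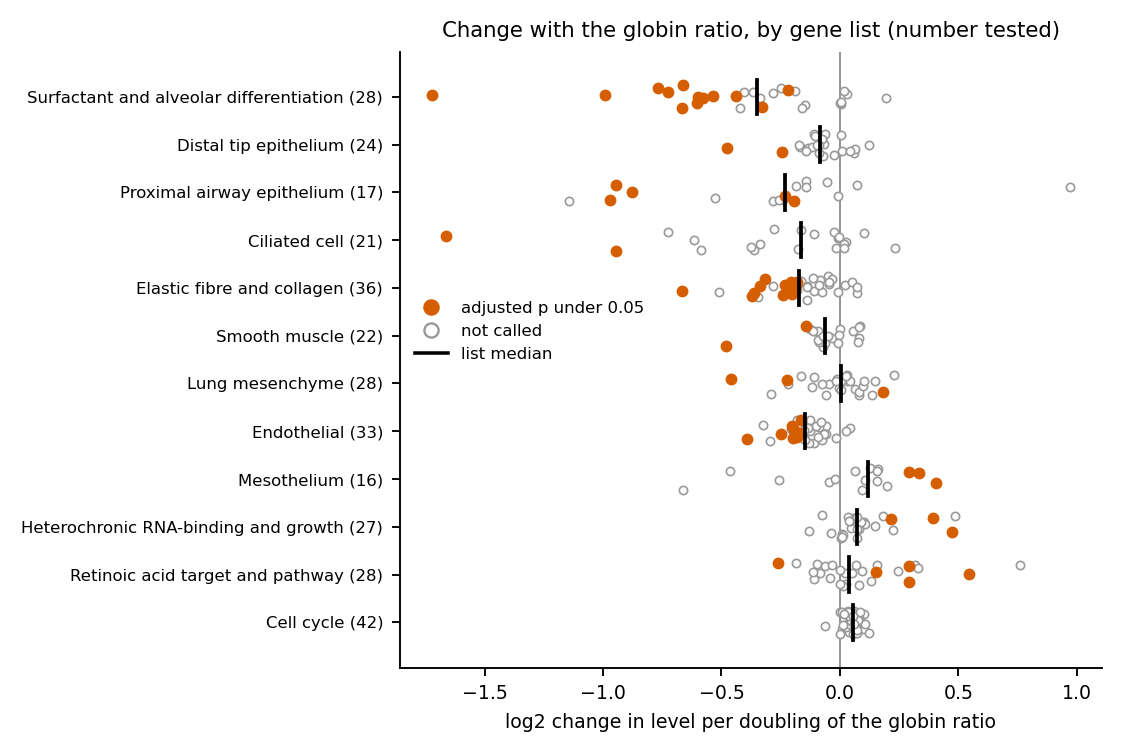
Each point is 1 gene of the list named at left, placed by its log2 change per doubling of the globin ratio, with called genes in orange and the list median as a bar. The 13 called alveolar, 12 matrix and 8 endothelial genes lie to the left of 0, and the called heterochronic and mesothelial genes to the right.

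Genes that rose with the ratio included regulators of early growth. Of 27 tested heterochronic and growth genes 3 rose and 0 fell, and 24 of 27 were above 0 with a median of 0.07. Hmga2, a chromatin protein of embryonic progenitors, rose by 0.39 (SE 0.05, edgeR adjusted p = 7.39e-05). Hmga2 (ENSMUSG00000056758, chromosome 10) was at 126, 102, 64.1 and 68.3 CPM in B6 with BMS493 and at 184, 158, 158 and 128 CPM in A/J with BMS493, from the highest to the lowest ratio. In controls it was at 96.2, 84.5, 89.5 and 97.6 CPM in B6 and at 247, 190, 187 and 161 CPM in A/J. The higher-ratio libraries exceeded the others in every group but B6 controls, in A/J with BMS493 barely so at the boundary. Hmga2 was called in all 16 fits that left out 1 library, in B6 alone (0.48, edgeR adjusted p = 0.0029) and in A/J alone (0.32, edgeR adjusted p = 0.0312).

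Lin28b, which blocks the maturation of let-7 microRNAs, rose by 0.48 (SE 0.13, edgeR adjusted p = 0.047), and Igf2bp2, an mRNA-binding protein, by 0.22. Lin28b was at 1.44 to 4.99 CPM, and it was called in 4 of the 16 fits that left out 1 library, with the highest edgeR adjusted p, 0.446, without B6 BMS493 replicate 1. Neither it nor Igf2bp2 was called there or without B6 BMS493 replicate 2. Igf2bp1 at 0.18, Igf2bp3 at 0.07, H19 at 0.01 and Dlk1 at -0.13 were not called (edgeR adjusted p of 0.105, 0.468, 0.978 and 0.128).

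All 3 genes that rose are known let-7 targets, so the miRNA and 1 target site of each are shown. Let-7 itself was not measured in these libraries. The mature let-7g-5p (RefSeq, GRCm38.p6, chr9:106178846-106178867, plus strand) has its seed, bases 2 to 8, in capitals. The sites are 30 bases of the 3′ UTR, in DNA letters from GENCODE M21 (GRCm38), with the match to the seed in capitals. They lie at chr10:120364217-120364246 (Hmga2), chr10:45381015-45381044 (Lin28b) and chr16:22059466-22059495 (Igf2bp2), all on the minus strand.

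let-7g-5p: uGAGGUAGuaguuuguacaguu
Hmga2: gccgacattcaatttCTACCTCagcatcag
Lin28b: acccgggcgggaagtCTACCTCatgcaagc
Igf2bp2: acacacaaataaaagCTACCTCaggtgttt

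The longest annotated 3′ UTR of Hmga2 (3014 bases) held the match CTACCTC 4 times on the transcript strand, that of Lin28b (4445 bases) 4 times and that of Igf2bp2 (1784 bases) 1 time. Of UTRs within 1.5 times the length of that of Hmga2, 0.236% held at least 4 matches, and for Lin28b 0.29%. For Igf2bp2, 12.3% of UTRs of like length held at least 1 match. At least 1 match was found in 17.5% of 57 rising genes, 10.2% of 304 falling genes and 10.6% of 14070 tested genes. The median UTR of rising genes was longer, at 1714 against 1190 bases, and longer UTRs held more matches.

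Of 28 tested genes of the retinoic acid pathway and its targets 4 rose and 1 fell. Aldh1a2, the main enzyme of retinoic acid synthesis in the embryo and also a mesothelial gene, rose by 0.29 (SE 0.07, edgeR adjusted p = 0.0166). It was at 53.6, 56.3, 38.6 and 27.9 CPM in B6 with BMS493, and at 69.1, 70.7, 66.4 and 59.4 CPM in A/J with BMS493. In controls it was at 46.5, 47.9, 39.6 and 47.1 CPM in B6 and at 69.5, 54.2, 54.0 and 57.3 CPM in A/J. The classes overlapped in both control groups. Crabp2 rose by 0.54, Hoxb6 by 0.29 and Meis1 by 0.15, and Aldh1a1, a related synthesis enzyme, fell by 0.26. Cyp26b1, which degrades retinoic acid, was at -0.08 and not called (edgeR adjusted p = 0.927). Of 16 mesothelial genes 3 rose, Wt1 by 0.33 and Bnc1 by 0.41 besides Aldh1a2. None of these 7 genes was called without B6 BMS493 replicate 1 or without B6 BMS493 replicate 2, and Meis1 was called in 4 of the 16 fits. With the replicate number as a factor, 0 of the 7 were called. For Aldh1a2 the largest adjusted p when 1 library was left out was 0.115, without B6 BMS493 replicate 2 (edgeR). With the mitochondrial share as a covariate, 2 of the 5 called retinoic acid genes and 2 of the 3 mesothelial genes were called.

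Among genes named for the size of their slope, Ptn, which encodes the growth factor pleiotrophin, rose by 0.28 (SE 0.05, edgeR adjusted p = 0.000927) and did so in A/J alone (0.29, edgeR adjusted p = 0.00746). It was at 243, 235, 212 and 166 CPM in A/J with BMS493 and at 115, 102, 106 and 68.8 CPM in B6 with BMS493. Also rising were Lmo3 by 0.43, Fndc3c1 by 0.35, Sept3 by 0.30, AW551984 by 0.27, B4galnt4 by 0.25, D430019H16Rik by 0.18, Nasp, a histone chaperone gene, by 0.16, and Pclaf, a partner of the replication clamp, by 0.13. Among called genes with a mean of at least 1 CPM and the same sign in 4 of 4 groups, the falling genes of largest slope were led by Napsa of the alveolar and Scgb3a2 of the airway list, followed by the chloride channel gene Clic3 at -0.90, the galectin gene Lgals3, of the macrophage list, at -0.89 and Ccn3 at -0.85, of the CCN matrix family. Slc6a14, at -0.77, Klf14, at -0.74, Clic5 of the alveolar list, at -0.73, H2-T23, at -0.72, Ubxn10, at -0.70, and Veph1, at -0.70, followed. Of the genes of this paragraph, Ptn, Clic3, Ccn3, Veph1, AW551984 and Scgb3a2 were called in all 16 fits that left out 1 library. The others lost the call without B6 BMS493 replicate 1 or B6 BMS493 replicate 2, with an edgeR adjusted p of up to 0.607 for Slc6a14. Of these, Nasp, Ubxn10 and Clic5 were called in 4 of the 16 fits, Slc6a14 in 6, Klf14 in 7, H2-T23 in 8 and Fndc3c1 in 11.

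EdgeR called 0 of 42 cell cycle genes, with 8 at an unadjusted p under 0.05, while 41 of 42 were above 0, and the median was 0.06. Mki67, a marker of dividing cells, was at 655 to 925 CPM in the higher-ratio and 630 to 834 CPM in the lower-ratio class, with a slope of 0.06 (SE 0.06, edgeR adjusted p = 0.716). The hypoxia list had 0 of 24 called by edgeR (13 at an unadjusted p under 0.05), the neuroendocrine list 0 of 12 (5 at an unadjusted p under 0.05) and the cholesterol list 1 of 28, Elovl6, which rose by 0.27. Over all genes 1.79% fell and 0.365% rose. Of 27 immediate early and heat shock genes 2 fell, Klf2 by 0.37 and Klf4 by 0.42. Of 25 macrophage genes Lyz2, by 0.58, and Lgals3 fell, and of 21 glucocorticoid response genes Per1, by 0.36, and Nfkbia, by 0.17, fell. Elovl6, Lyz2, Lgals3, Per1 and Nfkbia were not called without B6 BMS493 replicate 1 or without B6 BMS493 replicate 2, and Nfkbia was called in 3 of the 16 fits. Klf2 was not called without B6 BMS493 replicate 1 (edgeR adjusted p = 0.175), and Klf4 neither there nor without B6 BMS493 replicate 2 (edgeR adjusted p = 0.133). The remaining calls among lists were Stab2 of lymphatics (-0.50), Col9a3 of cartilage (-0.42), Gfra2 of neural crest (-0.30), Klf5 of the foregut list (-0.43), Gata2 of the mast cell list (-0.28) and Ppbp of platelets (-1.37). Most other members of 2 of these lists had slopes above 0, with 12 of 15 and a median of 0.09 in the mast cell list and 14 of 22 and a median of 0.13 in the neural crest list. The foregut list had 4 of 8 above 0 and a median of 0.03. Stab2 was called in all 16 fits that left out 1 library. Col9a3, Gfra2, Gata2 and Ppbp were not called without B6 BMS493 replicate 1 (edgeR adjusted p of 0.322, 0.078, 0.306 and 0.257), nor was Klf5 without B6 BMS493 replicate 2 (edgeR adjusted p = 0.083). Gata2 was called in 5 of the 16 fits, Ppbp in 12, Col9a3 in 13, Gfra2 in 14 and Klf5 in 15.

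Red cell genes come from the same cells as the globins and are given as a description. Of 38 tested erythroid genes other than globins 31 were below 0, with a median slope of -0.14, and 4 fell, among them Alas2 and Mkrn1. Without B6 BMS493 replicate 1 Alas2 was the 1 still called, and without A/J BMS493 replicate 2 there were 2. Alas2 was at 10.5, 16.7, 25.9 and 41.8 CPM in A/J with BMS493 and at 16.5, 25.1, 43.0 and 31.0 CPM in B6 with BMS493, from the highest to the lowest ratio. Its slope was -0.76 (SE 0.11, edgeR adjusted p = 0.000927). The summed level of the list was 1044 to 1142 CPM in the higher-ratio and 1087 to 1266 CPM in the lower-ratio class. With a score of these genes as a covariate, 321 of the 372 genes called against the ratio were called.

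Markers of neighbouring organs were compared between classes, since dissection can carry them along. The heart list summed to 74.5 to 139 CPM in the higher-ratio and 94.7 to 135 CPM in the lower-ratio class, with 1 of 24 members, Nppa, at 0 counts in all libraries. Of 16 tested heart genes 14 had a slope below 0 (median -0.28) and edgeR called none, with 4 at an unadjusted p under 0.05. The liver list summed to 15.9 to 53.9 and 16.3 to 55.9 CPM, with Apoc3 and Serpina1c at 0. Its member Alb, the gene of albumin, was at 0.113 to 2.12 CPM in the higher-ratio and 0.186 to 5.21 CPM in the lower-ratio class. The thymus list summed to 118 to 143 and 98.6 to 144 CPM, and the skeletal muscle list to 6.13 to 13.5 and 6.54 to 12.6 CPM. The oesophagus list summed to 21.9 to 38.8 and 26.8 to 59.3 CPM. Their part in the results was not tested. The mitochondrial share, which moved with the ratio, was fitted as a covariate, and 312 of the 372 genes were then called.

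Because the ratio varied most in the BMS493 groups, the effect of BMS493 was fitted with and without the ratio as a covariate. In B6 73 genes were called without it (0.423%) and 181 with it (1.05%), and all 73 were among the 181. In A/J 84 were called without it (0.486%) and 119 with it (0.689%), and 82 were in both. Cyp26b1, a direct target of retinoic acid receptors, had a log2 fold change of -3.68 in B6 with or without the ratio, and of -4.24 without and -4.27 with it in A/J. Foxj1 in B6 changed from 1.38 (SE 0.45, edgeR adjusted p = 0.308) to 1.16 (SE 0.27, edgeR adjusted p = 0.0355), with the smaller SE, from the same libraries. In A/J Foxj1 was at -0.65 (SE 0.59, edgeR adjusted p = 0.992) without and -1.06 (SE 0.38, edgeR adjusted p = 0.419) with the ratio, called in neither. Sftpc in B6 was at 0.78 (SE 0.39) without and 0.59 (SE 0.21) with the ratio and was not called in either (edgeR adjusted p of 0.578 and 0.305).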

How the data were processed

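The authors deposited raw counts per gene for each library in 3 columns (without strand and for each strand), and the submitters' processing notes name FastQC, cutadapt, STAR and GRCm39. Versions and annotation are not given in the sources used here. Of 57180 genes, 51933 were matched by identifier to GENCODE M21 for symbols and types, and 4 lines that are not genes were left out. Each strand column held about the same number of counts (50.95% to 52.05% in one of the pair), so the column without strand was used. Of 81 genes named by rule, 37 overlap an annotated gene on the opposite strand, among them Synm, Hmga2, Ltbp2, Eln, Alas2, Sox17 and Aldh1a2. How the overlap affected their counts was not tested.

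Python 3.11.15 and R 4.3.3 were used. Genes were filtered with filterByExpr (17276 kept), scaled by TMM and tested with edgeR 4.0.16 (robust quasi-likelihood, group plus class, or group plus log2 ratio). P-values were two-sided and adjusted by Benjamini-Hochberg over all genes. CPM used TMM scaling, and logged values a prior count of 2. The classes, members and lists were chosen with earlier results of these data known. The fit against the ratio was an alternative to the classes and is given in full because the class test called no gene. Named genes were called, protein-coding, at a mean CPM of at least 1, outside the erythroid list and with the same sign in 4 of 4 groups (12 highest and 12 lowest, or the 5 of lowest p where fewer than 5 were called), plus a panel of 28 genes and the 2 largest called members of each of 30 lists. Library pairs within a group differed by more than counting noise (chi-square per degree of freedom of at least 3.515). Alternatives included DESeq2 1.42.0, other filters and scaling, covariates and leaving out each library. The class model was tested on simulated data, and the fit against the ratio was not.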

Additional observations from a re-analysis of the deposited data

Results flagged for a closer look

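A single library stood apart in 14 of 186 sets. The measure was the distance from the extreme library to its neighbour as a share of the whole spread, read against Dixon's critical values of 0.829 for 4 libraries and 0.526 for 8. Chance passes them in about 1 set in 20. For genes the sets were the 8 libraries of a class, as log2 CPM minus the group mean. B6 BMS493 replicate 2, the library of lowest ratio, stood apart in the lower-ratio class for Slc6a14 (0.7595), Aldh1a2 (0.624), B4galnt4 (0.562), Ager (0.548), Sept3 (0.542) and Deup1 (0.533). For Slc6a14 it lay 1.51 above its group mean against at most 0.18 in the other 7 libraries. B6 BMS493 replicate 1 stood apart in the higher-ratio class for Sept3 (0.6775), Meis1 (0.649), D430019H16Rik (0.568) and Lyz2 (0.554). B6 BMS493 replicate 3 did so for Col9a3 (0.612) and Klf2 (0.563), and A/J BMS493 replicate 4 for Pdgfra (0.594). In B6 controls, replicate 3 had a share of counts in the 10 most abundant genes of 4.17% against 4.05% in the nearest library (0.843).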

How the results depend on the processing

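The class comparison called 0 genes with RLE scaling, a mean CPM of at least 1, the library set, a stranded column, classes from beta or alpha globins alone, erythroid content as a covariate, B6 libraries alone and control libraries alone. It called 14 with DESeq2, 139 with no filter, 37 with the replicate block, 372 with the log2 ratio as a number, 2 in A/J libraries alone, 2 in BMS493 libraries alone, and 0 to 2 when 1 library was left out. The dependence on strain gave 2 genes with DESeq2, 4 with no filter and 0 to 188 when 1 library was left out, and that on treatment 3, 35 and 0 to 115. Against the ratio, 603 genes were called with DESeq2, 683 with no filter, 59 with the replicate block, 760 with the mitochondrial share as a covariate, 27 in A/J, 675 in control and 34 in BMS493 libraries alone, 146 with alpha globins alone, and 90 to 720 when 1 library was left out. With the library set it was 299. With the ratio as a covariate the effect of BMS493 in B6 gave 181 genes. In control libraries alone 338 of 365 calls kept their sign. Among named genes, called or not, Etv5 (-0.31, called there but not over all libraries), Ppbp (0.19) and Hoxb6 (-0.10) changed sign there. The cause was not tested. Deviations of same-numbered libraries correlated above 0.1 in 3 of 24 pairs, and 7 of 16 libraries were closest to their own number. This does not settle whether same-numbered libraries belong together. All 4 libraries numbered replicate 4 were in the higher-ratio class, so a difference between replicate numbers cannot be told apart from the ratio in full. The alternatives against the ratio, and those for BMS493, were chosen after seeing the data.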
